A study of Mus musculus with 167 samples.

Results

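The 8 genes described here, Mecom, Hlf, Gata2, Meis1, Mllt3, Hoxa9, Prdm16 and Hoxb5, encode nuclear regulators of transcription that are known for their roles in blood stem cells. They were chosen by name, as 8 of the 38924 genes in the deposited table. The table holds RNA levels of single LMPPs (lymphoid-primed multipotent progenitors) taken from the marrow of wild-type female C57BL/6J mice, 84 columns from mice of 14 months and 84 columns from mice of 4 months. At both ages the marrow was depleted of lineage-positive cells, and LMPPs were sorted for Flt3hi, c-Kit+, Sca-1+ and CD34+ cells that were Lin- and CD150-, and captured 1 by 1 on a Fluidigm C1 chip. The 14-month columns carry set number 4 (45 columns) or 5 (39 columns), and the 4-month columns carry none. What the set number stands for, and how many mice were used, is not given here, and no cell is tied to an animal.

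LMPPs lie a step below the stem cell: they can still form lymphoid and granulocyte-monocyte cells, while most of their megakaryocyte and erythroid potential is lost. Stem cells are held in their undifferentiated state by a small set of transcription factors, and the transcripts of several of these persist at lower levels in multipotent progenitors. Mecom and Prdm16 are related zinc finger proteins of the Prdm family, Hlf is a leucine zipper factor of the PAR family, and Gata2 is a GATA-type zinc finger factor. Hoxa9 and Hoxb5 are homeodomain proteins, Meis1 is a TALE homeodomain protein that binds DNA together with Hox and Pbx proteins, and Mllt3 (Af9) is a reader of acylated histones that works with elongation and Dot1l complexes.

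The promoters of Mecom, Prdm16 and Hlf are shown because Mecom and Hlf differed most between the ages in their shares of cells, and because Mecom and Prdm16 are related genes. Each runs from 250 bases before to 50 bases after the transcript start, 5′ to 3′ on the gene's strand, and comes from RefSeq (GRCm38.p6), where 7 of the 8 genes were matched, with 10 promoters in all. Mecom (first of its 2 starts in that table) is at chr3:30509710-30510009, Prdm16 at chr4:154636824-154637123 and Hlf at chr11:90390868-90391167, all on the minus strand. Capitals mark, in Mecom and Prdm16, a run of 24 bases that the 2 promoters share, and in Hlf the cyclic AMP response element TGACGTCA.
Mecom: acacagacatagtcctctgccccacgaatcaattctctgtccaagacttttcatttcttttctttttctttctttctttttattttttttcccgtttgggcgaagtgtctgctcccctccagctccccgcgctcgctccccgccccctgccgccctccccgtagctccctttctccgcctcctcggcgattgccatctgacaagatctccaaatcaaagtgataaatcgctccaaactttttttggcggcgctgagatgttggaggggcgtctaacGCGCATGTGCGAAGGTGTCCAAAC
Prdm16: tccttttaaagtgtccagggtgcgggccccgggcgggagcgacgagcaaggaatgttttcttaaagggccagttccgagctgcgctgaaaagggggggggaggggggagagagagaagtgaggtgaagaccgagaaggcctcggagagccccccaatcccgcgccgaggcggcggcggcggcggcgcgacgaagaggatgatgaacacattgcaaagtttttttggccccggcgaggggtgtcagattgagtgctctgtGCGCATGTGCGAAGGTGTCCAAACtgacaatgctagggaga
Hlf: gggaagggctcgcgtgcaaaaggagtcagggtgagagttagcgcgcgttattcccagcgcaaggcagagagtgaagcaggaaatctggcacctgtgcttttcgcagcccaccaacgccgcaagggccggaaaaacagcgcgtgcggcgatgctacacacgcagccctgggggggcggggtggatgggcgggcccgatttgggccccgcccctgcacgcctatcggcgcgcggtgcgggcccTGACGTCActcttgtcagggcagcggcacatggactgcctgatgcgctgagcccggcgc

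The shared run was found in 2 of the 32851 promoters in the table, those of Mecom and Prdm16. The Hlf element lies 9 bases before the start, and TGACGTCA was found in 1.79% of all promoters, searching both strands. Mecom start 1 also holds TGATAA 31 bases before the start, a motif of the Gata factors. The spelling AGATAA was searched with it, and 18.6% of promoters held at least 1 of these spellings. Meis1 holds the ETS motif CCGGAAGT 13 bases before its start, which 3.89% of promoters hold. These are matches of letters, with no measurement of binding. Among the other motifs searched, TGACAG (19.2% of promoters) was in 2 of the 10 promoters of these genes, CCAAT (37.4%) in 6, and TATAAA (13.6%) and the PAR zipper motif TTACGTAA (0.119%) in 0.

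Values are TPM (transcripts scaled to the same total in every cell), which are already divided by transcript length, so that levels of different genes can be set side by side. Each column sums to 1000000 TPM, so sequencing depth is unknown, and the number of genes detected, at TPM 1 or more, stands in for it. Columns with 1000 or more genes were kept, 130 in all: 66 of 14 months (29 of set 4 and 37 of set 5) and 64 of 4 months. The median number of genes detected was 3281 in the kept cells of 14 months (3230 in set 4 and 3376 in set 5) and 3974.5 in those of 4 months. Mitochondrial transcripts had a median share of 17.7% at 14 months (20.5% in set 4 and 15.8% in set 5) and 12.4% at 4 months. A gene counted as measured when the mean of its shares of cells at the 2 ages was at least 10%, which held for 9224 genes. These were detected in 32.4% of 14-month cells and 41.0% of 4-month cells on average, so a lower share at 14 months is the usual case. Each labelled sample is 1 cell, so each age counts as 1 sample: no test was made, differences have no replicate check, and the exact (Clopper-Pearson) 95% intervals cover counting error only. Among the kept cells, 4 pairs had profiles that correlated over 0.75, all of 14 months. Age cannot be told apart from any difference in capture between the ages.

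The sort was checked against its own genes. Transcripts of Flt3 were detected in 92.4% of 14-month and 100% of 4-month cells, Cd34 in 87.9% and 89.1%, Kit (c-Kit) in 53.0% and 67.2%, and Ly6a (Sca-1) in 37.9% and 39.1%. Slamf1 (CD150), Cd3e and Ly6g were in 0 kept cells of either age. Itgam (CD11b), whose protein the lineage depletion targets, had transcripts in 25.8% of 14-month and 68.8% of 4-month cells, at mean levels of 3.55 and 6.30 TPM. Ly6c1 was in 19.7% and 21.9%.

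Of the 8 regulators, 7 were detected in at least 1 kept cell and 6 were measured. Prdm16 and Hoxb5 did not pass the filter of 10%. By mean level, the order was Meis1, Hoxa9, Hlf, Mecom, Mllt3, Gata2, Prdm16 and Hoxb5 at 14 months, and Meis1, Hlf, Hoxa9, Mecom, Gata2, Mllt3, Prdm16 and Hoxb5 at 4 months. Meis1 stood well above the rest, with 185 TPM at 14 months and 220 TPM at 4 months. The next gene averaged 33.0 TPM (Hoxa9) at 14 months and 64.2 TPM (Hlf) at 4 months. At every step of either order, the neighbours' means of log2(TPM + 1) differed by less than the SD over cells of the gene placed higher. For each of the 7 detected regulators the levels of single cells overlapped between the ages.

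**Figure D1:**
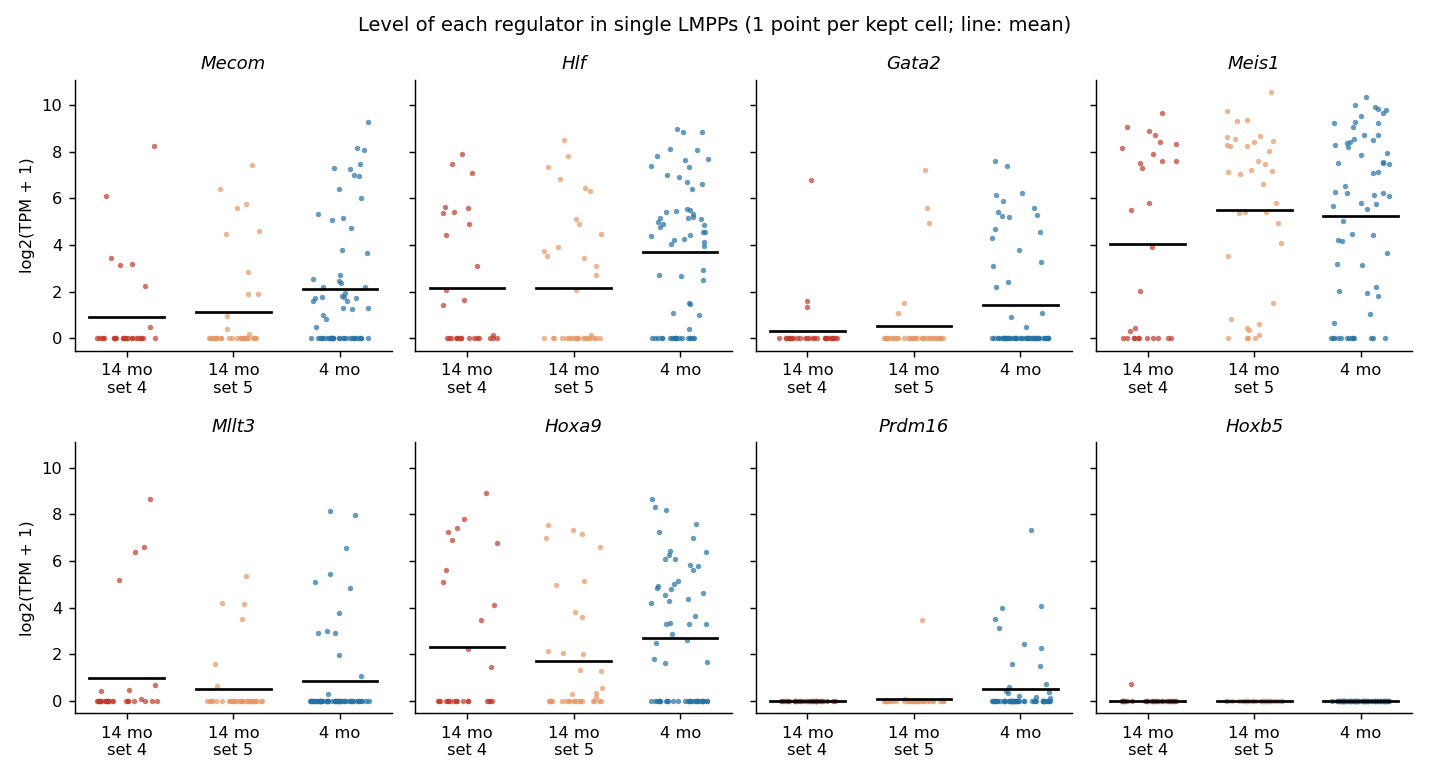
Each point is 1 kept cell, placed by its log2(TPM + 1) in cells of 14 months (set 4, set 5) and of 4 months, with a line at the mean. Meis1 reaches the highest values in all groups, Hlf has a smaller share of cells above 0 in both 14-month sets than at 4 months, and Hoxb5 is above 0 in 1 cell.

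Mecom and Hlf showed the widest gaps between the ages. Mecom (chromosome 3, 29951296 to 30548008 in the GENCODE annotation of GRCm38, as for the genes below) encodes the Evi1 zinc finger protein, which is needed to maintain stem cells. In 14-month cells it was listed at 0 in the lowest and in the median cell and at 303 TPM in the highest, and in 4-month cells at 0, at a median of 1.41 and at 624 TPM. It was detected in 15 of 66 cells of 14 months (22.7%, 95% limits 13.3 and 34.7%) and in 34 of 64 cells of 4 months (53.1%, 95% limits 40.2 and 65.7%). The 14-month sets were alike, with 20.7% in set 4 and 24.3% in set 5.

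Much of that gap in Mecom lay in cells with low values. A level from 1 to under 5 TPM was found in 3 cells of 14 months and 17 cells of 4 months. At 5 TPM or more the shares were 18.2% at 14 months and 26.6% at 4 months. Among the cells in which Mecom was detected, its median level was 21.2 TPM in 14-month cells, against 5.18 TPM in 4-month cells. The fewer 14-month cells with Mecom thus had the higher median, while the highest single value, 624 TPM, was of a 4-month cell. By set the median was 9.0 TPM in set 4 (6 cells) and 23.3 TPM in set 5 (9 cells). Leaving out 1 cell moved that of set 5 to as much as 35.2 TPM.

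Hlf (chromosome 11, 90336536 to 90390895) marks stem cells and early progenitors and declines as they differentiate. Its level ran from 0 through a median of 0 to 358 TPM in 14-month cells, and from 0 through a median of 19.2 to 496 TPM in 4-month cells. It was detected in 43.9% of 14-month cells (29 of 66, 95% limits 31.7 and 56.7%) and 70.3% of 4-month cells (45 of 64, 95% limits 57.6 and 81.1%). Set 4 had 44.8% and set 5 had 43.2%. Unlike for Mecom, the gap was nearly as wide among higher values: 37.9% of 14-month cells and 62.5% of 4-month cells had 5 TPM or more. Where it was detected, its median level was 28.7 TPM in 14-month cells, against 34.3 TPM in 4-month cells. The sets lay on either side of the 4-month value, at 40.6 TPM in set 4 and 24.85 TPM in set 5.

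Gata2 (chromosome 6, 88193891 to 88207032), a factor required for the formation and survival of stem cells, was seen in fewer cells. It was listed at 0 in the lowest and the median cell of both ages, and the highest cell had 148 TPM at 14 months and 196 TPM at 4 months. The share of cells was 12.1% at 14 months (8 of 66, 95% limits 5.38 and 22.5%) and 29.7% at 4 months (19 of 64, 95% limits 18.9 and 42.4%). These intervals overlap. Both sets were low, with 10.3% in set 4 and 13.5% in set 5. In the cells with Gata2 the median level was 16.0 TPM in 14-month cells, against 35.8 TPM in 4-month cells. With 1 of the 8 cells of 14 months left out, that median was either 2.02 or 29.9 TPM, so it is poorly fixed.

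**Figure D2:**
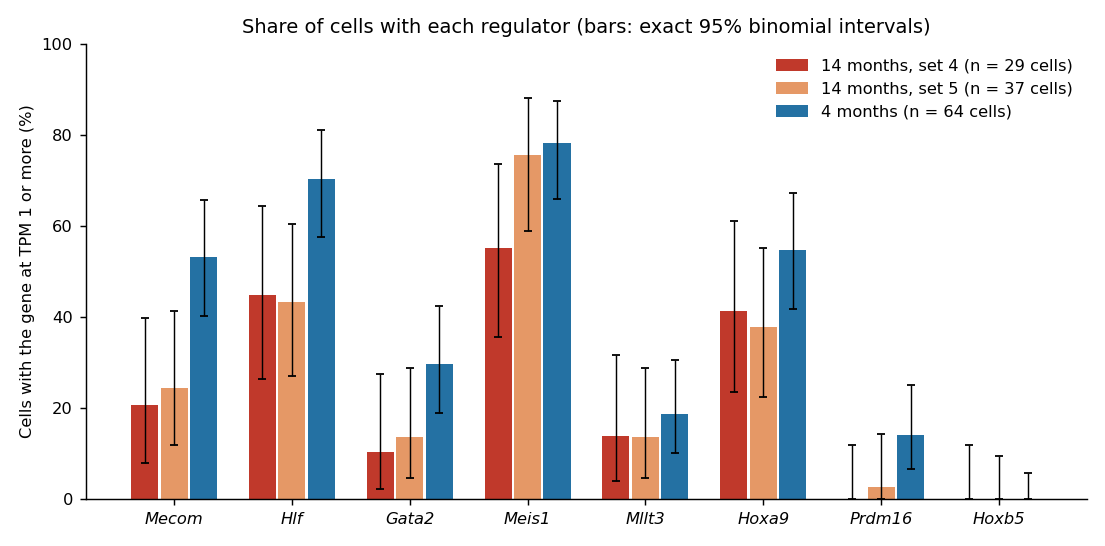
Bars give the percent of kept cells with each regulator at TPM 1 or more, for 14 months (set 4 and set 5) and 4 months, with exact 95% binomial intervals. Mecom, Hlf and Gata2 are at similar heights in the 2 sets, 20.7 and 24.3% for Mecom, and lower there than at 4 months, while Meis1 differs between the sets (55.2 and 75.7%).

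Meis1 and Hoxa9, which act as partners on DNA, differed less between the ages in their shares of cells than Mecom and Hlf. The share of Meis1 was not alike in the 2 sets. Meis1 (chromosome 11, 18879817 to 19018985) was listed at 0 in the lowest cell of both ages. The median cell had 55.2 TPM at 14 months, against 68.5 TPM at 4 months, and the highest cells had 1505 and 1286 TPM. It was detected in 66.7% of 14-month cells (44 of 66, 95% limits 54.0 and 77.8%) and 78.1% of 4-month cells (50 of 64, 95% limits 66.0 and 87.5%). In set 4 it was found in 55.2% of cells and in set 5 in 75.7%, so that set 5 was close to the 4-month cells and set 4 was not.

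Hoxa9 (chromosome 6, 52223100 to 52231089), which drives the expansion of progenitors, ran from 0 through a median of 0 to 482 TPM at 14 months and from 0 through a median of 3.54 to 405 TPM at 4 months. It was detected in 39.4% of 14-month cells (26 of 66, 95% limits 27.6 and 52.2%) and 54.7% of 4-month cells (35 of 64, 95% limits 41.7 and 67.2%). In set 4 the share was 41.4%, and in set 5 it was 37.8%. Where it was detected, the median level was 33.9 TPM in 14-month cells, against 28.1 TPM in 4-month cells.

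Mllt3 (chromosome 4, 87769925 to 88033364), which helps to keep human stem cells in culture, was listed at 0 in the lowest and the median cell of both ages and reached 408 TPM at 14 months and 279 TPM at 4 months. It was detected in 13.6% of 14-month cells (9 of 66, 95% limits 6.43 and 24.3%) and 18.8% of 4-month cells (12 of 64, 95% limits 10.1 and 30.5%). It averaged 10.8 TPM in 14-month cells and 12.0 TPM in 4-month cells, or 4.66 and 7.72 TPM when the highest cell of each age was left out. The sets differed, with means of 21.5 TPM in set 4 and 2.36 TPM in set 5.

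Prdm16 (chromosome 4, 154316125 to 154636873), the relative of Mecom, was detected in 1 of 66 cells of 14 months (1.52%, 95% limits 0.0384 and 8.16%) and 9 of 64 cells of 4 months (14.1%, 95% limits 6.64 and 25.0%). The 14-month cell was of set 5 and had 10.1 TPM, and the highest 4-month cell had 158 TPM. Counting any value above 0, it was in 2 cells of 14 months and 17 cells of 4 months.

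Hoxb5 (chromosome 11, 96303336 to 96306121), used as a mark of long-term stem cells in mice, was detected in 0 of 66 cells of 14 months and 0 of 64 cells of 4 months, which allows shares of up to 4.55% and 4.69%, taking 3 cells of the total as the limit. The exact 95% intervals reach 5.44% and 5.60%. A single cell of set 4 had 0.65 TPM. Other transcripts of long-term stem cells were also rare: Procr was in 1 cell of 14 months and 3 cells of 4 months, and Fgd5 in 0 and 3 cells.

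Between the ages, most genes had lower means at 14 months. The difference of mean log2(TPM + 1), 14 months minus 4 months, had a median of -0.36 over all measured genes, and 77.0% of them were negative. Differences are therefore given relative to that median gene, and they understate the change of low genes. Hlf had a relative difference of -1.18, Mecom -0.72, Gata2 -0.61, Hoxa9 -0.36, Meis1 -0.04 and Mllt3 0.24. Thus 5 of the 6 measured regulators lay below the median gene, with a median of -0.48, where the measured genes have 50% below it by construction. A relative difference of -1 or lower was found in 1 of the 6 (Hlf), against 5.08% of all measured genes, and of 1 or higher in 0, against 3.37%.

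Among all measured genes, 3.19% were lower than Hlf, 10.7% lower than Mecom and 14.2% lower than Gata2. The value of Hlf was -0.63 with a pseudocount of 10, -0.90 over all columns and -0.99 after quantile normalization, all short of -1, so that 0 regulators passed there. With a pseudocount of 0.1 the count was 3, with Mecom (-1.34) and Gata2 (-1.02) added, and in cells matched on genes detected it was 2, with Mecom at -1.12. The share of all measured genes at -1 or lower was not counted under these other settings, so these counts have no background. The sign of Meis1 was not stable: it was 0.01 with TPM rescaled without mitochondrial and small non-coding RNAs, and -0.88 in cells matched on genes detected. Hlf, Mecom, Gata2 and Hoxa9 stayed below and Mllt3 above the median gene under the 3 other scalings, which were the rescaled, quantile-normalized and matched cells.

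**Figure D3:**
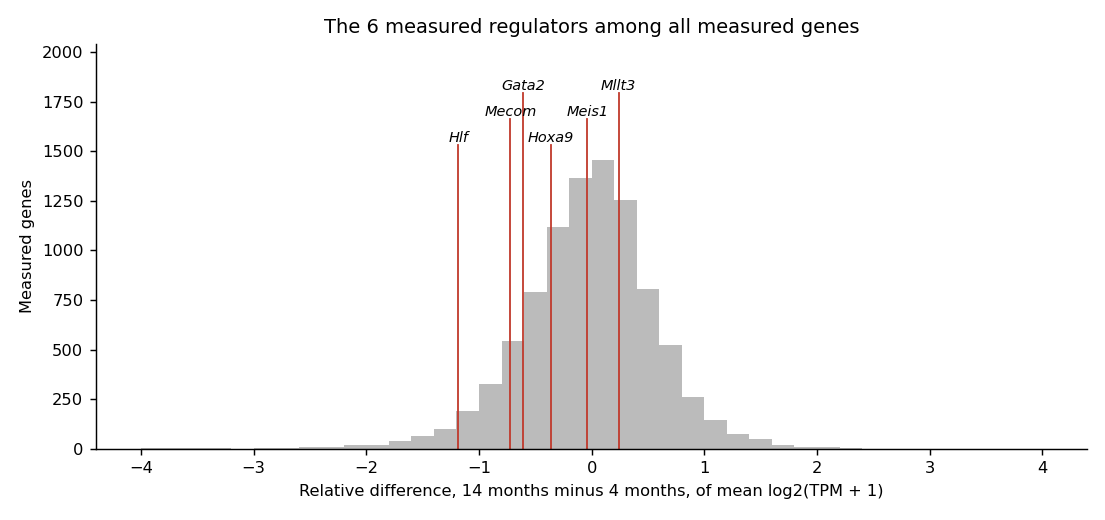
Grey bars count the 9224 measured genes by relative difference (14 months minus 4 months, mean log2(TPM + 1), less the median gene), and red lines mark the 6 measured regulators. Hlf, at -1.18, lies in the lower tail, and Meis1 (-0.04) and Mllt3 (0.24) lie in the middle.

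Each set against the 4-month cells gave 1 regulator at -1 or lower, and it was Hlf in both (-1.13 in set 4 and -1.19 in set 5), where 6.75% of all measured genes passed that mark in set 4 and 6.56% in set 5. No regulator reached 1, against 4.59% of measured genes in set 4 and 6.63% in set 5. Mecom (-0.78 in set 4 and -0.64 in set 5) and Gata2 (-0.66 and -0.53) were also close between the sets. Meis1 was at -0.78 in set 4 and 0.58 in set 5. For Hoxa9 the values were 0.04 and -0.64, and for Mllt3 0.57 and 0.02. The sets share the 4-month cells, so these values are not independent.

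By shares of cells, the intervals of Mecom and Hlf did not overlap between the ages, both being lower at 14 months, which makes 2 of the 8 regulators. Of the measured genes, 8.16% had intervals apart and lower at 14 months, and 0.0867% had intervals apart and higher. That count changed in cells matched on genes detected and with the mark of TPM 1. In 43 cells of each age matched on genes detected (medians 3874 and 3792), Mecom was in 20.9% of 14-month cells (95% limits 10.0 and 36.0%) and 51.2% of 4-month cells (95% limits 35.5 and 66.7%), and Hlf in 46.5% and 67.4%. Neither pair of intervals was apart in these fewer cells. At 5 TPM or more the intervals of 1 regulator were apart, and it was Gata2, in 4 of 66 cells of 14 months (upper limit 14.8%) and 16 of 64 cells of 4 months (lower limit 15.0%). Those of Hlf then overlapped, with an upper limit of 50.7% at 14 months and a lower limit of 49.5% at 4 months. Counting any value above 0, the intervals of 2 regulators were apart, Mecom and Prdm16. Those of Hlf overlapped there too, with limits of 59.7% and 59.2%. For the matched cells and these other marks, the share of all measured genes with intervals apart was not counted, so these counts have no background.

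Co-detection was counted as the number of regulators found in the same cell. A cell held 2.00 ± 1.41 of the 8 (SD over 66 cells, median 1) at 14 months and 3.19 ± 1.55 (SD over 64 cells, median 3) at 4 months. At least 3 regulators were detected in 25 of 66 cells of 14 months (37.9%, 95% limits 26.2 and 50.7%) and 44 of 64 cells of 4 months (68.8%, 95% limits 55.9 and 79.8%). Sets 4 and 5 gave nearly the same share, 37.9% and 37.8%. At least 5 were found in 2 cells of 14 months and 12 cells of 4 months. Cells with exactly 1 regulator made up 42.4% of 14-month cells and 7.81% of 4-month cells. Here the sets were unlike, with 31.0% in set 4 and 51.4% in set 5. Cells with 0 regulators made up 17.2% of set 4 and 2.70% of set 5.

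Cells with more genes detected held more regulators, so the count was also taken at like numbers of genes. Across cells, Pearson's r between the number of regulators and of genes detected was 0.35 in set 4, 0.31 in set 5 and 0.63 at 4 months. The cells do not count as separate samples. Among cells with 1000 to 2999 genes, the mean number of regulators was 1.54 at 14 months (28 cells) and 1.45 at 4 months (11 cells). With 3000 to 3999 genes it was 2.14 (21 cells) and 2.91 (22 cells), and with 4000 or more it was 2.59 (17 cells) and 4.00 (31 cells). These are means over few cells: in the bin of 3000 to 3999 genes, set 4 (9 cells) averaged 1.44 and set 5 averaged 2.67. In the matched cells, 39.5% of those of 14 months (95% limits 25.0 and 55.6%) and 65.1% of those of 4 months (95% limits 49.1 and 79.0%) held at least 3.

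**Figure D4:**
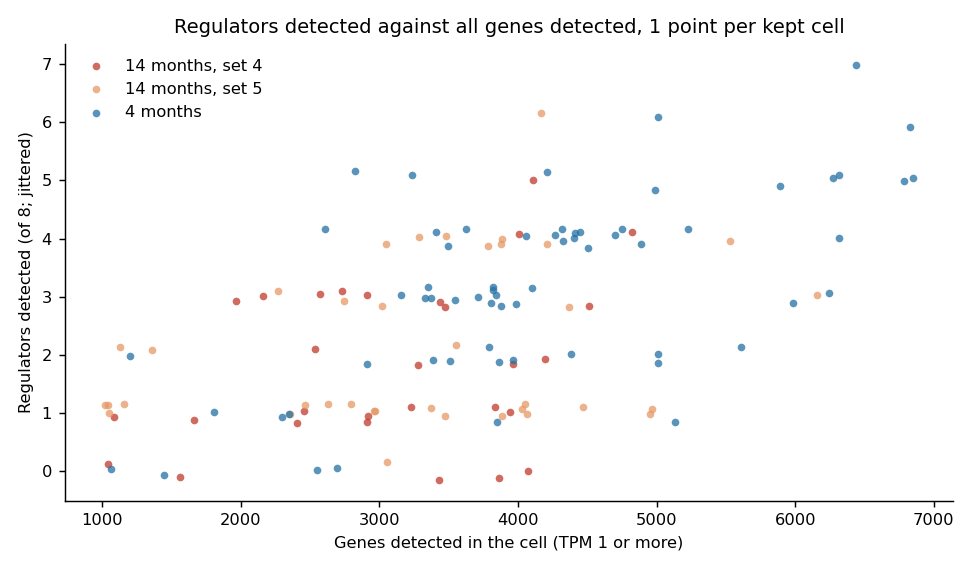
Each point is 1 kept cell, placed by its number of genes detected and by how many of the 8 regulators it held, with points jittered vertically. At 4000 genes or more the 14-month cells average 2.59 regulators and the 4-month cells 4.00, with single cells of the ages overlapping.

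Pairs of regulators were compared with the product of their shares, the value for unrelated detection. Of the 21 pairs of the 7 detected regulators, 16 were found together above the product at 14 months and 14 at 4 months. Prdm16 was in 1 cell of 14 months, so each of its pairs at that age rests on that cell. The same count was not made over pairs of other measured genes, so these counts have no background. The highest phi coefficient, a correlation of detected or not, was that of Mecom and Hlf at both ages, 0.39 over 66 cells and 0.42 over 64 cells. Both were detected in 12 cells of 14 months (18.2%, where the product is 9.99%) and 30 cells of 4 months (46.9%, where the product is 37.4%). Hlf was found in 80.0% of the 14-month cells with Mecom and in 88.2% of the 4-month cells with Mecom. Phi was 0.05 in set 4, with 3 cells holding both, and 0.65 in set 5, where all 9 cells with Mecom held Hlf.

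Over each age the other pairs had lower phi values, and with so few cells they are no finding in themselves. For Mecom and Meis1 phi was 0.31 at 14 months and 0.18 at 4 months, and for Hlf and Meis1 it was 0.17 and 0.32. Gata2 was detected together with Hlf in 6 of its 8 cells at 14 months and 17 of its 19 cells at 4 months (phi 0.23 and 0.27). Meis1 and Hoxa9, although known partners, were detected together about as often as the product of their shares: 27.3% against 26.3% at 14 months and 42.2% against 42.7% at 4 months. All genes of a cell share its library and depth, whose part in these values was not tested.

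**Figure D5:**
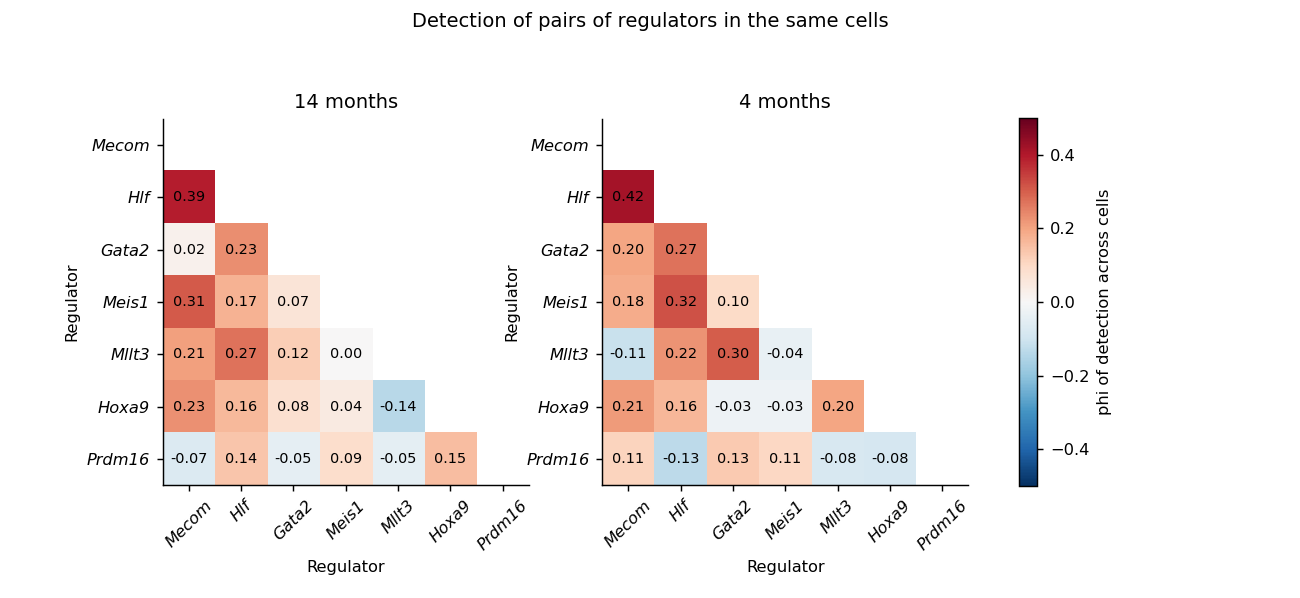
The number in each square is the phi coefficient of detection of 2 regulators across kept cells of 14 months (left) and 4 months (right), from -0.5 (blue) to 0.5 (red). Mecom with Hlf has the highest value at both ages, 0.39 and 0.42.

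After the set and the number of genes detected were regressed out of log2(TPM + 1), Mecom and Hlf had r = 0.29 over the 130 cells, which ranked Hlf 12 of 6785 genes for Mecom. The genes most like Mecom were Nr3c1 (the glucocorticoid receptor, r = 0.37), Eya2 (0.36) and Vldlr (0.33). Those most like Hlf were Ctla2b (0.40), Adgrl4 (0.39) and Itga6 (integrin alpha 6, 0.37). For Gata2 they were Rad52 (0.35), Pla2g16 (0.34) and Zfp592 (0.33), for Meis1 D8Ertd738e (0.38), Slc25a36 (0.37) and Hmga1 (0.32), and for Hoxa9 Lrpap1 (0.34), Ndfip1 (0.33) and Tmem30a (0.32). The 99th percentile of r over all measured genes lay between 0.23 and 0.25, so these values are modest and describe these cells only. The names depend on the measure. With Spearman's rho, 1 of the 3 genes was shared for Mecom and Gata2 and 2 of 3 for Hlf, Meis1 and Hoxa9. With nothing regressed out, 1 of 3 was shared for Hlf, Gata2 and Meis1, 2 for Mecom and 3 for Hoxa9.

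Lineage transcripts were read in the same cells. Dntt, the terminal transferase of lymphoid cells, was in 82.8% of the Hlf cells of 14 months, against 86.4% of all cells of that age (phi -0.09). At 4 months it was in 73.3% of the Hlf cells and 75.0% of all cells (phi -0.06). Mpo, a granule enzyme of myeloid cells, was in 62.1% of both the Hlf cells and all cells at 14 months, and in 51.1% of the Hlf cells and 54.7% of all cells at 4 months. Detection of Dntt and of Mpo in cells with Hlf was thus near its share over all cells. This did not hold for all lineage genes read. At 14 months Bcl11a was in 75.9% of the Hlf cells, against 57.6% of all cells (phi 0.33). Elane was in 10.3% of the Hlf cells, against 16.7% of all cells (phi -0.15). These differences were not tested. Mecom cells held Ikzf1, a lymphoid factor, in 7 of 15 cells at 14 months (phi -0.34) and 32 of 34 cells at 4 months (phi 0.21). The sets differed at 14 months, with 1 of 6 cells in set 4 (phi -0.58) and 6 of 9 in set 5 (phi -0.16). This is 1 of many pairs of a regulator with a lineage gene, and over so few cells it is no finding in itself. Among 12 lymphoid and myeloid genes, 5 lay below the median gene, with a median relative difference of 0.25, 1 at -1 or lower and 4 at 1 or higher. The extremes were Dntt (1.60), Ctsg (cathepsin G, 1.43), Ikzf1 (-1.01) and Bcl11a (-0.91). Ikzf1 was short of -1 after quantile normalization (-0.52) and in the matched cells (-0.88), and Elane (neutrophil elastase), at 1.04, was short of 1 in both (0.91 and 0.63).

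The families of the regulators, each counted with the regulators that belong to it, gave a mixed picture. Of the 21 Hoxa and Hoxb genes listed, 4 were measured, all of the Hoxa cluster and all below the median gene (median -0.27, none past -1). Hoxa7 was at -0.60 (-1.41 in set 4 and 0.07 in set 5), and Hoxa10 and Hoxa5 were both at -0.18. Among the TALE genes, which encode the partners of Hox proteins, 4 of 8 were measured and 3 lay below the median gene (median -0.07), among them Pbx4 at -0.32 and Pbx2 at -0.11, with the sign of Meis1 changing under rescaling as given above. Pknox1 stood on the other side at 1.12, with 30.3% of 14-month and 21.9% of 4-month cells. In the Prdm family 5 of 6 measured genes were below the median gene (median -0.37), among them Prdm10 (-0.86), Mecom and Prdm15 (-0.06), while Prdm2 was at 0.53. Dbp, a relative of Hlf in the PAR family, was at 0.00.

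Mllt3 and its partners in elongation and Dot1l complexes, counted together, centred on the median gene: 16 of 18 were measured, 8 lay below it and their median was 0.02. The kinase Cdk9 (-1.13) and its cyclin Ccnt1 (-1.27) were the 2 at -1 or lower, and Ccnt1 was in 65.2% of 14-month and 90.6% of 4-month cells. After quantile normalization both were short of -1, Cdk9 at -0.89 and Ccnt1 at -0.77. The alternative cyclin Ccnt2 was at 0.37 and the elongation factor Eaf1 at 0.39. The Gata family and the group of factors that bind with Gata2 in stem cells made a list of 10 genes, Gata2 among them. Of these, 8 were measured and 6 lay below the median gene (median -0.25). Some of these 6 lay above the median gene after quantile normalization, so that count depends on the scaling. Lyl1, a helix-loop-helix factor of that group, was the lowest at -2.29, with 33.3% of 14-month and 70.3% of 4-month cells, and was low in set 4 (-2.49) and set 5 (-2.09). Lmo2 was at -0.80, Gata3 at 0.65, and Tal1 at 0.21, which turned to -0.12 in the matched cells.

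Of 25 other stem cell genes, 13 were measured, 10 lay below the median gene and 1 at -1 or lower (median -0.35). That gene was Txnip, an inhibitor of thioredoxin, at -2.72, with 31.8% of 14-month and 71.9% of 4-month cells. Etv6, an ETS-type repressor needed by adult stem cells, was next at -0.84 (-0.44 after quantile normalization). Ly6a was at 0.32 and Clca3a1 at 0.03, which turned to -0.42 in the matched cells.

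Markers of other cell types were read beside these values. The summed level of 6 megakaryocyte markers ran from 0 through a median of 1.14 to 634 TPM at 14 months and from 0 through a median of 3.48 to 316 TPM at 4 months. Vwf, which stem cells also express, was in 47.0% of 14-month and 76.6% of 4-month cells (relative difference -0.70). Gp1bb was in 0 cells and Pf4 in 1 cell of 14 months and 2 cells of 4 months, and at least 3 of the markers met in 0 cells of either age. Itga2b was in 1 cell of 14 months and 4 cells of 4 months, Gp9 in 2 and 2, and Ppbp in 1 and 0. The median summed level, which thus rests mostly on Vwf, was lower at 14 months, as were Mecom, Hlf and Gata2. Its part in those differences was not tested. Gata1, Epor and Car1 of 6 erythroid markers were in 0 kept cells. At 14 and 4 months, Hba-a1 was in 7 and 5 cells, Hbb-bs in 0 and 5, and Klf1 in 1 and 1. Of 7 mast cell and basophil markers, Cpa3, Ms4a2, Fcer1a, Cma1 and Prss34 were in 0 kept cells. Mcpt8 was in 5 and 4 cells, and Hdc in 2 and 5. Both summed levels had a median of 0 at both ages. They reached 2232 and 600 TPM for the erythroid markers, and 309 and 282 TPM for the mast cell and basophil markers. Of 6 endothelial markers Cdh5 and Cldn5 were in 0 cells, and the summed level ran from 0 through 0.295 to 587 TPM at 14 months and from 0 through 1.57 to 482 TPM at 4 months, with Emcn at -0.57 and Pecam1 at 0.26.

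Antisense or sense genes overlap Mecom, Meis1, Prdm16, Hoxa9 and Hoxb5 in the annotation, and the labels do not say that strand was kept, so reads of such neighbours cannot be told apart from those of the gene. Those in the table were detected in few cells. The highest share over an age was that of Gm16140, antisense to Meis1, in 4.55% of 14-month and 9.38% of 4-month cells.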

How the data were processed

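Single LMPPs of mice of 14 and 4 months were measured by RNA sequencing. The deposited values are TPM. RSEM 1.2.12, Bowtie2 2.2.0 and the build mm10 are named for them, per the submitters' processing notes, while their annotation is not given here. All 168 columns were read. There are 83 labelled cells of 14 months and 84 of 4 months, so 1 column of 14 months has no label of its own. Columns could be tied to an age, not to a labelled cell.

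From these values, shares of cells at TPM 1 or more, exact 95% binomial intervals, means of log2(TPM + 1) with a pseudocount of 1, co-detection and likeness were computed. Columns with fewer than 1000 genes detected (38) were left out, and genes in under 10% of cells, by the mean of the 2 ages' shares, were not counted as measured. No doublet caller was run, since TPM keeps no counts and the captured cells were imaged, per the labels' protocols. Each age is 1 sample, so no p-value was computed. The calculation of differences was tested on simulated data.

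The 8 regulators, the 14 gene lists and the settings were chosen with earlier results of these data known. The genes named are the 8 regulators and, for each of them that was detected in 20% or more of the cells of 1 age, the 3 most alike genes among measured genes that meet the same minimum. To these come the 2 highest and 2 lowest measured genes of each list and all sort genes. Some genes that this rule takes are not reported here and were left out of the lists. Predicted genes, pseudogenes and mitochondrial transcripts were left out of the most alike genes. Procr, Fgd5, Pf4 and the undetected markers were named for their low counts, Mpo, a lineage gene, and Gm16140, an antisense gene, after their values were seen. The other detected megakaryocyte, erythroid, mast cell and basophil markers were named so that each of these lists is shown whole. Symbols were found for 37607 of 38924 identifiers. Coordinates are from GENCODE (GRCm38). Alternatives were pseudocounts of 0.1 and 10, detection above 0 or at 5 TPM, other filters on cells and genes, other scalings, matched cells and each set on its own. The tools were pandas 2.3.3, numpy 2.4.6, scipy 1.17.1 and matplotlib 3.10.9 under Python 3.11.15.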

Additional observations from a re-analysis of the deposited data

Results flagged for a closer look

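The sets of 14 months gave opposite signs of the relative difference for 2 regulators when each was set against the 4-month cells. The relative difference of Meis1 was -0.78 in set 4 and 0.58 in set 5, and that of Hoxa9 was 0.041 in set 4 and -0.64 in set 5. Without subtracting the median gene, Hoxa9 was lower than at 4 months in both sets (-0.38 and -0.98). Meis1 was then lower in set 4 (-1.21) and higher in set 5 (0.24). The difference between the sets was not tested, since no cell is tied to an animal.

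Among the 38 columns left out for fewer than 1000 genes detected, Meis1 was detected in 4 columns, all of 14 months, and reached 922 TPM. Hoxa9 was detected in 5 such columns, 2 of 14 months and 3 of 4 months, and reached 1257 TPM. Hlf, Mllt3, Prdm16 and Hoxb5 were in 0 of the 38.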

How the results depend on the processing

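No setting tried turned the sign of the median relative difference of the measured regulators (-0.48), which moved to -0.77 with a pseudocount of 0.1 and to -0.20 with a pseudocount of 10. With genes in 30% or more of cells, 4 regulators were measured and 3 of them lay below the median gene, where 5 of 6 did before. The count of regulators with share intervals apart, 2, became 1 at TPM 5 or more, with 2000 genes or more, with all columns and with set 4 alone, and 0 after quantile normalization, in matched cells and with set 5 alone. Fewer cells entered the matched and single-set comparisons, and the cause was otherwise not tested. Intervals apart were not counted over all measured genes under these settings. At 4 months, cells with 3 or more regulators made up 48.4% at TPM 5 or more and 52.4% over all columns. In 11 of 11 alternatives the share of cells was lower at 14 months for Mecom, Hlf, Gata2, Meis1, Hoxa9 and Prdm16, and in 8 of 11 for Mllt3. The relative difference was below 0 in 13 of 13 alternatives for Hlf, Mecom and Gata2, while Meis1 kept its sign in 5 of 13. In all, 4 alike pairs of cells, all of 14 months, had correlations over 0.75, and leaving out 3 cells changed no count by over 1.5 times. The difference of the median gene itself, -0.36, was -0.086 after quantile normalization and 0.055 in matched cells. Depth is unknown, so the lowest level that could be seen in a cell is not known. No paired analysis was possible because the columns carry no replicate number that the ages share, and no result comes from a test.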
